A study of Mus musculus with 12 samples.

Results

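The teneurins (Tenm1, Tenm2, Tenm3 and Tenm4), the latrophilins (Adgrl1, Adgrl2 and Adgrl3) and the FLRT genes (Flrt1, Flrt2 and Flrt3) were followed through the embryonic mouse cortex by single nucleus RNA sequencing (snRNAseq). They were taken by symbol as 10 of the 23513 genes counted. All 10 were found in the data. Cortical nuclei came from E14 embryos of C57BL/6J dams that had received daily injections (i.p.) of saline or of 2.5 g/kg EtOH between E8 and E13. There were 5 saline embryos from dams S1 (S1-1, S1-2) and S2 (S2-1, S2-2, S2-4) and 6 EtOH embryos from dams E1 (E1-1, E1-2) and E2 (E2-1, E2-2, E2-3, E2-4). Dams S1 and E1 formed batch 1 and dams S2 and E2 batch 2, so each treatment rested on 2 dams, and littermates were treated as separate samples. The nuclei had been grouped by the authors into 25 clusters, which fall into radial glial cells (RGC), intermediate progenitors (IPC), projection neurons (PN), interneurons (Int) and other neurons.

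These 3 families are cell surface proteins that bind one another between cells. Teneurins are very large membrane proteins found on axons, growth cones and synapses, where they act as ligands of the latrophilins. Latrophilins are adhesion G protein-coupled receptors, best known as the receptors of a spider toxin that forces transmitter release. FLRT proteins carry leucine-rich repeats, bind latrophilins and the repulsive Unc5 netrin receptors, and are known to steer the migration of young cortical neurons. Complexes of all 3 families are known to guide migrating neurons and to specify which synapses form.

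The members are placed here on mm10 (GRCm38) by the GENCODE M21 annotation. Most of them are long genes. Tenm2 (chr11:36006656-37235964, minus strand) spans 1229 kb, Tenm1 (chrX:42527866-43429126, minus) 901 kb, Adgrl3 (chr5:81020138-81825133, plus) 805 kb, Tenm4 (chr7:96171246-96911093, plus) 740 kb and Tenm3 (chr8:48227682-48843951, minus) 616 kb. The shorter members are Adgrl2 (chr3:148815583-148990555, minus) with 175 kb, Flrt2 (chr12:95692226-95785215, plus) with 93.0 kb, Adgrl1 (chr8:83900105-83941954, plus) with 41.9 kb, Flrt3 (chr2:140650914-140671469, minus) with 20.6 kb and Flrt1 (chr19:7092001-7105729, minus) with 13.7 kb. Flrt3 lies wholly inside Macrod2 and Flrt1 wholly inside Macrod1, each on the strand opposite to its host. Adgrl3 and Adgrl2 are overlapped by the antisense genes Gm16054 and Gm43573, and Tenm4 by 5 antisense genes that were counted. Counted genes on the opposite strand also overlap Tenm1 (Sh2d1a), Tenm2 (Gm12126 and Gm12127) and Adgrl1 (Gm10644). Cell Ranger was run with its default settings, but its version, the strand it counted and whether it counted intronic reads were not stated in the sources used here, so reads of a member and of its opposite-strand partner may not be fully separated.

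The promoters of Flrt3 and Adgrl3 are shown because these were the members that differed most often between the treatments, in opposite directions, once 1 saline embryo was left out, as described further on. The sequences are the 250 bases before RefSeq's transcription start on GRCm38.p6, read 5′ to 3′ on the strand of the gene, and for Adgrl3 before the first of 3 listed starts, which lies inside the GENCODE gene. RefSeq windows were found for 9 of the 10 members. The pair was chosen after values were seen. Capitals mark matches to the E-box letters CANNTG, which many neurogenic transcription factors of the basic helix-loop-helix family bind.
Flrt3, chr2:140671477-140671726, minus strand: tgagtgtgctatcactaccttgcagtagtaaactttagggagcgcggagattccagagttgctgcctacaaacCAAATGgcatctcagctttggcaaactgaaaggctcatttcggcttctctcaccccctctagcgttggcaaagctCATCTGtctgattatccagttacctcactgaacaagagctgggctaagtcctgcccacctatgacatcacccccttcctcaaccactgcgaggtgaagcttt
Adgrl3, chr5:81020321-81020570, plus strand: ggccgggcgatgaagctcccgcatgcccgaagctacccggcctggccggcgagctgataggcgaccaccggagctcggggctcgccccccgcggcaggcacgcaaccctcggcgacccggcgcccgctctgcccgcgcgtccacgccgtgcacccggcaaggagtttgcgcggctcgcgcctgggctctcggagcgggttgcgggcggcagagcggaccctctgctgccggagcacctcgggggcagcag
The Flrt3 window holds 2 E-boxes and the Adgrl3 window 0, where 66.2% of 32851 windows of the same length hold at least 1. The GC box GGGCGG, read on both strands, has 0 matches before Flrt3 and 1 before Adgrl3, and 32.7% of all windows hold it. The Adgrl3 window has 36 CpG pairs and the Flrt3 window 5, against a median of 6 over all windows. The windows of the other 2 Adgrl3 starts, not printed, differ from the first. They hold 0 and 1 E-boxes, 2 and 1 GC boxes and 18 CpG pairs each, so the contrast with Flrt3 depends on the start. These matches describe letters and not binding.

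The tables held 50550 nuclei, with 14078316 to 83061737 UMIs per embryo. Summed markers of a major type were highest in that type in 11 of 11 embryos for RGC (Hes1, Hes5, Ednrb, Nes), IPC (Eomes, Mfap4) and Int (Gad2, Dlx1, Dlx2). Depth differed with treatment. The median nucleus had 8046 UMIs in saline and 6201 in EtOH embryos. At most 0.384% of a library's cell barcodes recurred in another library. Saline embryo S2-4 stood apart from its group. Over 6091 genes in PN, its deviations from the mean of the 11 embryos correlated positively with those of 6 of 6 EtOH embryos and with 0 of 4 saline embryos, and RGC, IPC and other neurons gave the same counts (in Int it was 5 of 6 and 0 of 4). Its median of 6325 UMIs per nucleus also lay among the EtOH values of 4071.5 to 6911, while the other saline embryos had 8365 to 9051. By size its library went with saline. Its 7215 nuclei and 53924776 UMIs lay among the other saline embryos and above every EtOH embryo (at most 4928 and 38034349). The label of S2-4 was kept. The labels alone could not settle whether it is right, and every comparison of EtOH with saline rests on it, so the main treatment results are given with and without S2-4. Leaving out an embryo because it resembles the other treatment enlarges the difference, so the values without S2-4 are not independent evidence. Without S2-4 every saline embryo had a higher median depth than every EtOH embryo, so depth and treatment then divide the embryos alike.

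Levels are given as CPM (counts scaled to the same library total of 1e6), from the pooled UMI counts of each embryo's nuclei in each cluster, as the mean ± SD over embryos with at least 10 nuclei (n = 11 unless stated). The clusters were made from the expression of these same nuclei, so differences between clusters are descriptions and carry no test. Neighbours in the order of levels were said to differ beyond their spread where the mean of the differences within embryos exceeded their SD. Of 240 such neighbours, 15 did. Shares of nuclei with at least 1 UMI are given after each nucleus was thinned to 2000 UMIs, which left out 387 shallower nuclei, 177 of saline and 210 of EtOH embryos. In such sums, fewer nuclei with a transcript and fewer transcripts per nucleus cannot be told apart.

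**Figure D1:**
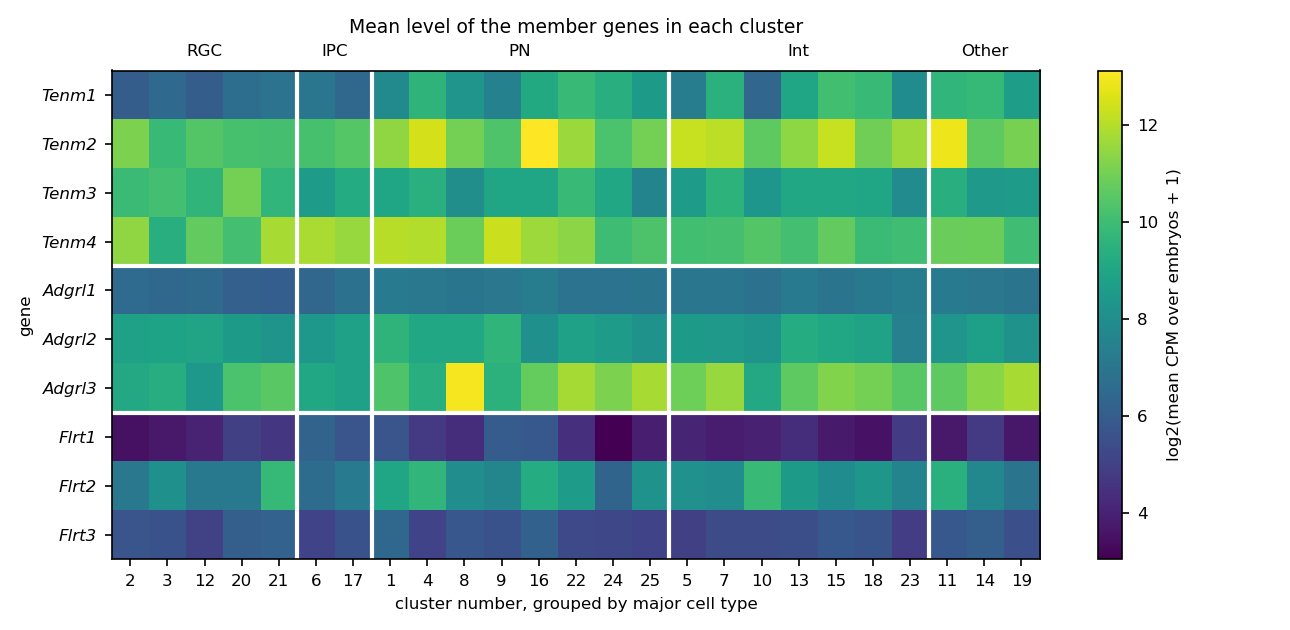
Mean level of each member in each of the 25 clusters, as log2(mean CPM over embryos + 1), with clusters on the x axis grouped by major cell type and genes on the y axis grouped by family. Tenm2 runs from 934 to 8997 CPM, Adgrl3 reaches 8151 CPM in Cluster 8 alone, and Flrt1 and Flrt3 stay under 100 CPM everywhere.

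Among the teneurins, Tenm2 was highest in caudal subcortical PN (Cluster 16, 8997 ± 1921 CPM), then in striatal interneurons (Cluster 11, 7624 ± 1505 CPM) and rostral subcortical PN (Cluster 4, 5802 ± 1630 CPM). Neither pair of neighbours among these 3 clusters differed beyond its spread. Its lowest level was in interneuron precursors (Cluster 3, counted among the RGC, 934 ± 133 CPM), 9.63-fold below the highest. Tenm4 was highest in early PN (Cluster 9, 5126 ± 336 CPM), above callosal PN (Cluster 1, 4280 ± 324 CPM) in 11 of 11 embryos and beyond the spread of that difference (846 ± 138 CPM). Rostral subcortical PN (Cluster 4, 3998 ± 208 CPM), non-mitotic IPC (Cluster 6, 3712 ± 624 CPM) and cortical hem RGC (Cluster 21, 3618 ± 498 CPM, n = 10) came next, and interneuron precursors of Cluster 3 were lowest (655 ± 172 CPM). In Int as a whole Tenm4 was at 1211 ± 77.4 CPM, against 3503 ± 245 CPM in PN.

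Tenm1 was higher in the neuronal types (PN 483 ± 42.9 CPM, Int 502 ± 117 CPM and other neurons 762 ± 207 CPM) than in RGC (76.7 ± 23.9 CPM) and IPC (113 ± 37.4 CPM). Tenm1 had 1089 ± 377 CPM in Cluster 15 (Int 3), 927 ± 121 CPM in Cluster 18 (Int 4) and 912 ± 177 CPM in the second callosal PN cluster (Cluster 22), none of which differed from its neighbour beyond the spread. It fell to 63.4 ± 17.7 CPM in Cluster 2 (RGC 1), 17.2-fold below the highest level. Tenm3 was highest in RGC (1076 ± 202 CPM) and had 463 ± 40.8 CPM in IPC, 536 ± 62.5 CPM in PN 532 ± 145 CPM in Int and 518 ± 119 CPM in other neurons. Cluster 20 (RGC 2) had 2061 ± 542 CPM (n = 9), above Cluster 3 with 1125 ± 238 CPM in 9 of 9 embryos, followed by Cluster 2 with 977 ± 112 CPM. PN 3 (Cluster 25, n = 7) was lowest at 195 ± 48.7 CPM. The share of nuclei with a Tenm1 UMI after thinning ran from 8.81% in Cluster 2 to 62.3% in Cluster 22, at median depths before thinning of 7486.5 and 10508 UMIs per nucleus. The unthinned shares were 25.5% and 85.5%. For Tenm3 the shares ran from 24% (Cluster 23) to 88.9% (Cluster 20), for Tenm2 from 48.4% (Cluster 21) to 96.1% (Cluster 16) and for Tenm4 from 46.3% (Cluster 3) to 99.6% (Cluster 9). The lowest share of each gene stands here as its background, since no cluster is known to lack these genes, and the part of free RNA in it was not tested.

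Adgrl3 had the largest fold between its highest and next cluster of the 10 members. It reached 8151 ± 527 CPM in PN 1 (Cluster 8), 2.24-fold above Cluster 19 (unknown neurons, 3640 ± 347 CPM), in 11 of 11 embryos and beyond the spread (difference 4511 ± 502 CPM). The EtOH and saline embryos both peaked there, at 8041 ± 715 CPM (n = 6) and 8282 ± 123 CPM (n = 5). PN 3 (Cluster 25, 3596 ± 750 CPM, n = 7) and Cluster 22 (3509 ± 1098 CPM) followed without differing beyond their spread. Adgrl3 was lowest in non-mitotic RGC (Cluster 12, 340 ± 172 CPM), 23.9-fold below its peak. Adgrl2 was highest in early and callosal PN (Cluster 9, 805 ± 42.5 CPM, and Cluster 1, 789 ± 96.6 CPM), which did not differ beyond their spread and whose order was reversed in saline embryos alone, and Cluster 1 stood above Int 2 (Cluster 13, 634 ± 92.5 CPM). Adgrl1 varied least of the 10 members, 2.41-fold from 65.5 ± 23.2 CPM in cortical hem RGC to 158 ± 18.3 CPM in Cluster 16. Cluster 23 (158 ± 32.3 CPM, n = 10) was the highest in saline embryos alone, by thinned share and with pooled counts. Adgrl1 levels were lower in RGC (88.3 ± 9.11 CPM) and IPC (91.5 ± 9.12 CPM) than in PN (137 ± 11.2 CPM) and Int (128 ± 9.59 CPM). After thinning, 12.5% to 30.5% of nuclei in a cluster had an Adgrl1 UMI, 23.7% to 73.6% an Adgrl2 UMI and 36.8% to 97.3% an Adgrl3 UMI.

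Of the FLRT genes, Flrt2 was highest in late interneuron precursors (Cluster 10, 950 ± 172 CPM), cortical hem RGC (Cluster 21, 890 ± 160 CPM, n = 10) and rostral subcortical PN (Cluster 4, 829 ± 81.9 CPM), and no neighbours among these differed beyond their spread. It was lowest in PN 2 (Cluster 24, 76.7 ± 46.2 CPM, n = 10). Flrt1 was sparse, with 75.1 ± 15.7 CPM in non-mitotic IPC (Cluster 6), 62.8 ± 15.5 CPM in early PN (Cluster 9) and 55.8 ± 11.6 CPM in Cluster 16, and its first gap beyond the spread lay between the fifth and sixth clusters (Cluster 17, 50.7 ± 7.96 CPM, and Cluster 20, 30.1 ± 16.3 CPM, n = 9). Flrt3 was sparse and ran 3.12-fold, from 28.2 ± 13.6 CPM (Cluster 23, n = 10) to 87.9 ± 25.5 CPM (Cluster 1). Its only gap beyond the spread lay between Cluster 14 and Cluster 11 (difference 12.9 ± 7.69 CPM, higher in Cluster 14 in 10 of 11 embryos). After thinning, at most 13.3% of nuclei in a cluster had a Flrt1 UMI and at most 15.8% a Flrt3 UMI, against 66.3% for Flrt2. The lowest shares were 1.00% for Flrt1, in Cluster 24, and 4.65% for Flrt3, in Cluster 23, where the median nucleus had 9700 and 5900 UMIs.

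The order of levels between genes depended on the scale. The UMIs of these 3′ libraries count a transcript near its 3′ end, so unscaled CPM applies if reads come from that end alone, and a length scale if reads come from along the gene. The unscaled mean over clusters was 2888 CPM for Tenm2, 2126 for Tenm4, 1922 for Adgrl3, 627 for Tenm3, 436 for Adgrl2, 422 for Tenm1, 347 for Flrt2, 120 for Adgrl1, 48.3 for Flrt3 and 25.6 for Flrt1. Per kb of merged exons, the mean over clusters was 252 CPM for Tenm2, 108 for Adgrl3, 101 for Tenm4, 61.2 for Tenm3, 45 for Flrt2, 30.7 for Adgrl2, 23.8 for Tenm1, 14.0 for Adgrl1, 9.94 for Flrt3 and 4.36 for Flrt1. Per 100 kb of gene span, it was 373 CPM for Flrt2, 287 for Tenm4 and Adgrl1, 249 for Adgrl2, 239 for Adgrl3, 235 for Tenm2 and Flrt3, 187 for Flrt1, 102 for Tenm3 and 46.8 for Tenm1. Since the counting of introns was not stated, which of the 3 scales applies is not known, and no order between genes is drawn from them.

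Over the 25 clusters, 5 of 45 pairs of members had a Spearman rho of at least 0.5 in size, and all 5 were positive. Tenm1 went with Adgrl3 (rho = 0.71, Pearson r = 0.67 on log2(CPM + 1)), with Adgrl1 (rho = 0.55) and with Tenm2 (rho = 0.53). Tenm2 went with Adgrl1 (rho = 0.70), and Tenm4 with Flrt1 (rho = 0.64). The most negative pair was Tenm3 and Adgrl1 (rho = -0.46). Adgrl3 and its FLRT ligand Flrt3 had rho = 0.08. By share of thinned nuclei, 5 pairs again reached 0.5 in size, but 1 of them, Tenm3 and Adgrl3, was negative (rho = -0.55), and Tenm1 with Tenm2 was at 0.48. In saline embryos alone 6 pairs did, 1 of them negative (Tenm3 and Adgrl1). The 25 points share the same 11 libraries and differ in depth, so these values are a description.

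The genes most like each member over the clusters included several on the opposite strand of that member. Among 11611 other genes with a mean of at least 10 CPM in 1 cluster, Adgrl3 was most like its antisense gene Gm16054 (Pearson r = 0.98), Tenm4 most like its antisense genes Gm15414 (r = 0.98) and Gm15413 (r = 0.94), and Flrt1 most like its host Macrod1 (r = 0.97). Flrt3 and its host Macrod2 had r = 0.08. Elsewhere the nearest genes were Syt5, Sema6b and Erc2 for Tenm1 (r = 0.91 for each), Banf2 for Tenm2 (r = 0.95), Gm48512 for Adgrl1 (r = 0.90) and Syn3, a synapsin gene, for Adgrl3 (r = 0.88). The nearest genes of Tenm3 (Cp, r = 0.77), Flrt2 (Fam13a, r = 0.74), Adgrl2 (Mospd2, r = 0.67) and Flrt3 (Kif16b, r = 0.63) were less like them.

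Whether EtOH changed the members was asked in each cluster with edgeR's quasi-likelihood test on the summed counts, with Benjamini-Hochberg adjustment over all genes tested in the cluster. A gene was called at an adjusted p under 0.05 with a rise of over 25% or a fall of over 20%. In 243 tests of members, 1 was called. Over all genes, 0.792% of the tests were called, so the members' 1 of 243 was near that background in this fit. Other settings went both ways. With batch as a block 0 were called and with the dam as a random block 3, smaller shares than over all genes. Shares above the background came, among others, from the settings that follow. With counts summed per dam 9 of 239 were called (3.77%, beside 0.721% over all genes), and with no low-count filter 15 of 250 (6%, beside 2.07%). DESeq2 called 10 of the 243 (4.12%), where it called 2.6% of all tests. The called result was a fall of Tenm1 in callosal PN (Cluster 1), where 3.26% of all genes were called. Tenm1 lies on the X chromosome. The authors had combined male and female embryos, and the labels did not give the sex of each, so sex was not tested. Tenm1 was at 239 CPM in S1-1, 259 in S1-2, 357 in S2-1, 396 in S2-2 and 210 in S2-4, and at 164 in E1-1, 216 in E1-2, 172 in E2-1, 179 in E2-2, 173 in E2-3 and 166 in E2-4. The 4 other saline embryos lay above every EtOH embryo, S2-4 lay within the EtOH values, and E1-2 was the highest EtOH embryo. The log2 fold change was -0.76 ± 0.16 (SE; edgeR, adjusted p = 0.0396), and without S2-4 it was -0.87 ± 0.13 (adjusted p = 0.00126). Within batch 1 the means were 249 CPM in saline and 190 CPM in EtOH, and within batch 2 321 and 173 CPM. With batch as a block the edgeR adjusted p rose to 0.0531, and without any 1 embryo other than S2-4 it lay between 0.0593 and 0.0850, so the call was lost without any of the other 10 embryos. This call was also not among the 3 with the dam as a random block or the 4 after thinning to 2000 UMIs.

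The other 4 of the 5 results with the smallest unadjusted p were not called. Adgrl3 in Cluster 2 (RGC 1), whose unadjusted p was smaller than that of Tenm1 in Cluster 1, was at 667 ± 131 CPM in saline (n = 5) and 461 ± 55.3 CPM in EtOH (n = 6), with a log2 fold change of -0.59 ± 0.13 and an edgeR adjusted p of 0.0548 (-0.71 ± 0.08 and 1.17e-05 without S2-4). Adgrl2 in Cluster 20 (RGC 2) was at 430 ± 28.4 CPM (n = 5) and 306 ± 37.8 CPM (n = 4), with an edgeR adjusted p of 0.185 (0.0772 without S2-4). It was the only one of these 5 whose groups did not overlap. EtOH embryos E1-2 and E2-3, with 7 nuclei and 1 nucleus there, were left out. Overlap is less likely with fewer embryos, and how many other genes of Cluster 20 had none was not counted. Flrt3 in Cluster 13 (Int 2) was at 31.7 ± 9.52 CPM in saline and 52.5 ± 12.1 CPM in EtOH (edgeR adjusted p = 0.0835, and 0.00699 without S2-4), and Tenm2 in Cluster 12 (non-mitotic RGC) at 1539 ± 256 and 1252 ± 94.0 CPM (edgeR adjusted p = 0.0909, and 0.00119 without S2-4). In each of Adgrl3, Flrt3 and Tenm2, S2-4 lay within the EtOH values, with 462, 46.9 and 1236 CPM. Of the members' 243 tests, 50 had an unadjusted p under 0.05 (20.6%, against 17.4% over all genes). By direction, Flrt3 was above 0 on the log2 fold scale in 21 of 23 clusters (median 0.42), and Adgrl3 and Adgrl2 were below 0 in 23 of 25 each (medians -0.26 and -0.19). Tenm1 was below 0 in 20 of 25 (median -0.34), Flrt2 in 18 of 25 (median -0.15) and Adgrl1 in 8 of 25 (median 0.03). Tenm2 and Tenm3 were below 0 in 10 of 25 each (medians 0.14 and 0.08), Tenm4 in 12 of 25 (median 0.03) and Flrt1 in 9 of 20 (median 0.02). Flrt1 passed the filter on low counts in 20 clusters, Flrt3 in 23 and each other member in 25. The clusters share embryos, so these counts are no test.

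In the 5 major cell types edgeR called 0 of 50 tests of members, where 3.75% of all tests were called, and 14 of the 50 had an unadjusted p under 0.05 (28%, against 27.7% over all genes). DESeq2 called 6 of them, 12% where it called 8% of all tests, Adgrl3 and Tenm1 lower in RGC and IPC and Flrt3 higher in PN and Int. Adgrl2 in RGC, at 466 ± 25.5 CPM in saline and 424 ± 12.9 CPM in EtOH, passed the edgeR adjusted p (0.0493, and 0.00300 without S2-4) and not the fold change (0.86). Adgrl2 in other neurons was at 385 ± 40.0 and 327 ± 17.2 CPM (log2 fold change -0.29 ± 0.07, edgeR adjusted p = 0.0545, and 0.000628 without S2-4), and Flrt3 in Int at 32.0 ± 9.10 and 45.6 ± 6.98 CPM (0.47 ± 0.14, edgeR adjusted p = 0.0623, and 0.00106 without S2-4).

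**Figure D2:**
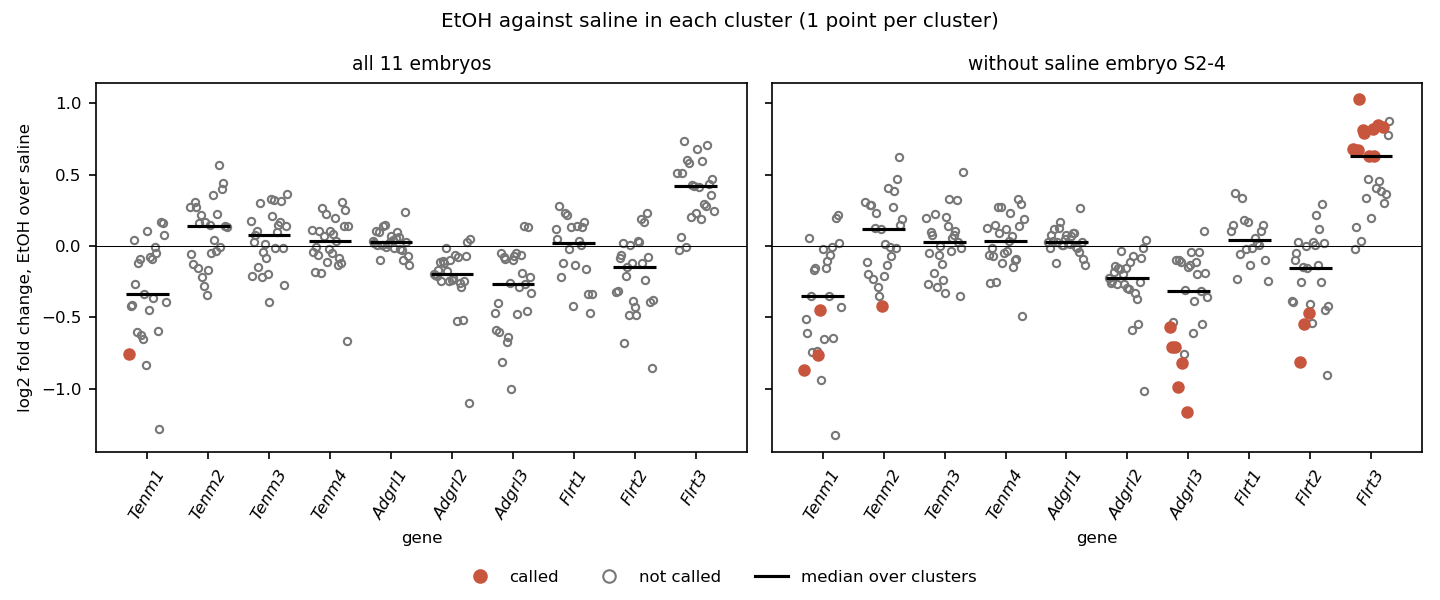
Log2 fold change of EtOH over saline (y axis) for each member (x axis), with 1 point per cluster, a bar at the median over clusters and filled points for called results, with all 11 embryos on the left and without saline embryo S2-4 on the right. With all embryos 1 point is called, and without S2-4 there are 23, with the 10 of Flrt3 above 0 and those of Adgrl3 (6), Tenm1 (3), Flrt2 (3) and Tenm2 (1) below it.

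Without S2-4, 23 of 241 tests of members were called, 9.54% where 8.78% of all tests were called, so the members as a set stood near the background there too. The 23 were 10 rises, which were all of Flrt3, and 13 falls, of Adgrl3 (6), Tenm1 (3), Flrt2 (3) and Tenm2 (1). These results were named after their values were seen. Flrt3 rose in Clusters 1, 4, 5, 7, 8, 11, 13, 14, 16 and 19, by the most in migrating interneurons (Cluster 5), where the fold change was 2.04 (edgeR adjusted p = 0.000226). There it was at 19.3, 11.9, 15.2 and 24.3 CPM in S1-1, S1-2, S2-1 and S2-2, at 38.1 CPM in S2-4 and at 28.2 to 45.2 CPM in EtOH embryos. Adgrl3 fell in Clusters 1, 2, 4, 6, 9 and 12, by the most in non-mitotic RGC (Cluster 12, log2 fold change -1.16, edgeR adjusted p = 0.0296) and with the smallest adjusted p in non-mitotic IPC (Cluster 6, log2 fold change -0.99, edgeR adjusted p = 6.02e-06). Tenm1 fell in Clusters 1, 10 and 11, Flrt2 in Clusters 6, 9 and 12 and Tenm2 in Cluster 12. Tenm3, Tenm4, Adgrl1, Adgrl2 and Flrt1 were called in 0 clusters, with 4, 2, 0, 12 and 2 clusters at an unadjusted p under 0.05.

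In the 5 major cell types without S2-4, 9 of 50 tests of members were called, 18% beside 16.9% over all genes. Flrt3 was higher in PN, Int and other neurons, Adgrl3 lower in RGC, IPC and PN, Tenm1 lower in RGC and IPC, and Adgrl2 lower in other neurons. A type sum pools clusters in shares that differed between embryos, which can move the sum. The part of this mix in the type results, with or without S2-4, was not tested. Flrt3 in PN was at 43.6, 39.9, 31.3 and 37.2 CPM in the 4 other saline embryos, at 67.6 CPM in S2-4 and at 68.9, 68.3, 65.6, 65.8, 58.1 and 57.4 CPM in the EtOH embryos. S2-4 was thus within the EtOH values, and the other saline embryos were all below them. The log2 fold change was 0.49 ± 0.16 with S2-4 (edgeR adjusted p = 0.0625) and 0.67 ± 0.09 without it (edgeR adjusted p = 0.000124). Within batch 1 the Flrt3 means in PN were 41.7 CPM in saline and 68.6 CPM in EtOH, and within batch 2 45.4 and 61.7 CPM. Adgrl3 in IPC was at 616, 625, 784 and 753 CPM in the 4 other saline embryos, at 369 CPM in S2-4 and at 340 to 487 CPM in the EtOH embryos, again with S2-4 inside the EtOH range. Its log2 fold change was -0.67 ± 0.18 with S2-4 (edgeR adjusted p = 0.0755) and -0.82 ± 0.10 without it (edgeR adjusted p = 4.99e-05).

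**Figure D3:**
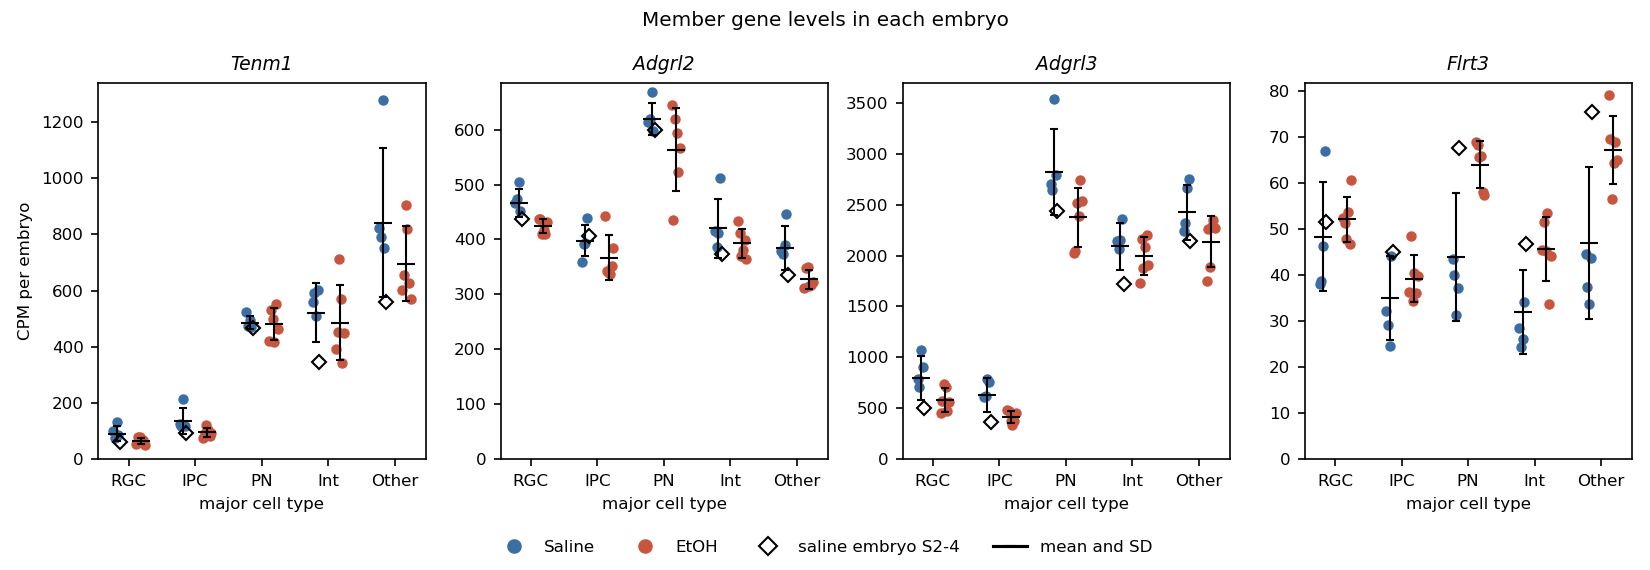
CPM of Tenm1, Adgrl2, Adgrl3 and Flrt3 in each embryo (y axes start at 0) in the 5 major cell types (x axis), with saline embryos in blue, EtOH embryos in red, S2-4 as an open diamond, and the mean and SD of each group in black. In PN, Flrt3 of S2-4 (67.6 CPM) lies among the EtOH embryos (57.4 to 68.9 CPM), and in IPC so does Adgrl3 (369 CPM, against 340 to 487 CPM).

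The negative fold changes of Adgrl3, Tenm1 and Flrt2 were larger where the gene was low. The clusters with shares below were chosen after their values were seen. For Adgrl3, the median log2 fold change was -0.53 in the 12 clusters with its lower levels and -0.10 in the 13 with its higher levels, and in Cluster 8, its peak, it was -0.09 ± 0.07 (edgeR adjusted p = 0.533, and 0.328 without S2-4). Tenm1 had medians of -0.60 and -0.08 in its lower and higher clusters, and Flrt2 of -0.35 and -0.09. Without S2-4 the lower and higher medians were -0.64 and -0.15 for Adgrl3, -0.69 and -0.10 for Tenm1 and -0.42 and -0.10 for Flrt2. For Flrt3 they were 0.47 and 0.38 with all embryos and 0.78 and 0.40 without S2-4, so its fold changes too were larger at lower levels. The lower and higher medians of the other members were -0.24 and -0.17 for Adgrl2 (-0.26 and -0.18 without S2-4), -0.02 and 0.23 for Tenm2, 0.10 and 0.03 for Tenm3, -0.07 and 0.07 for Tenm4, -0.01 and 0.04 for Adgrl1 and 0.04 and -0.08 for Flrt1. For Adgrl3, shares of nuclei were compared in 3 of these clusters. In Cluster 12, 52.3% to 66.8% of thinned nuclei had an Adgrl3 UMI in the 4 other saline embryos, 33.3% in S2-4 and 16.1% to 26.9% in EtOH embryos. In Cluster 6 the shares were 57.2% to 71.0%, 32.7% and 26.6% to 35.9%. In Cluster 8 they were 97.7% to 99.3%, 97.0% and 95.0% to 97.7%, so close to the ceiling that this measure could show little change there.

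**Figure D4:**
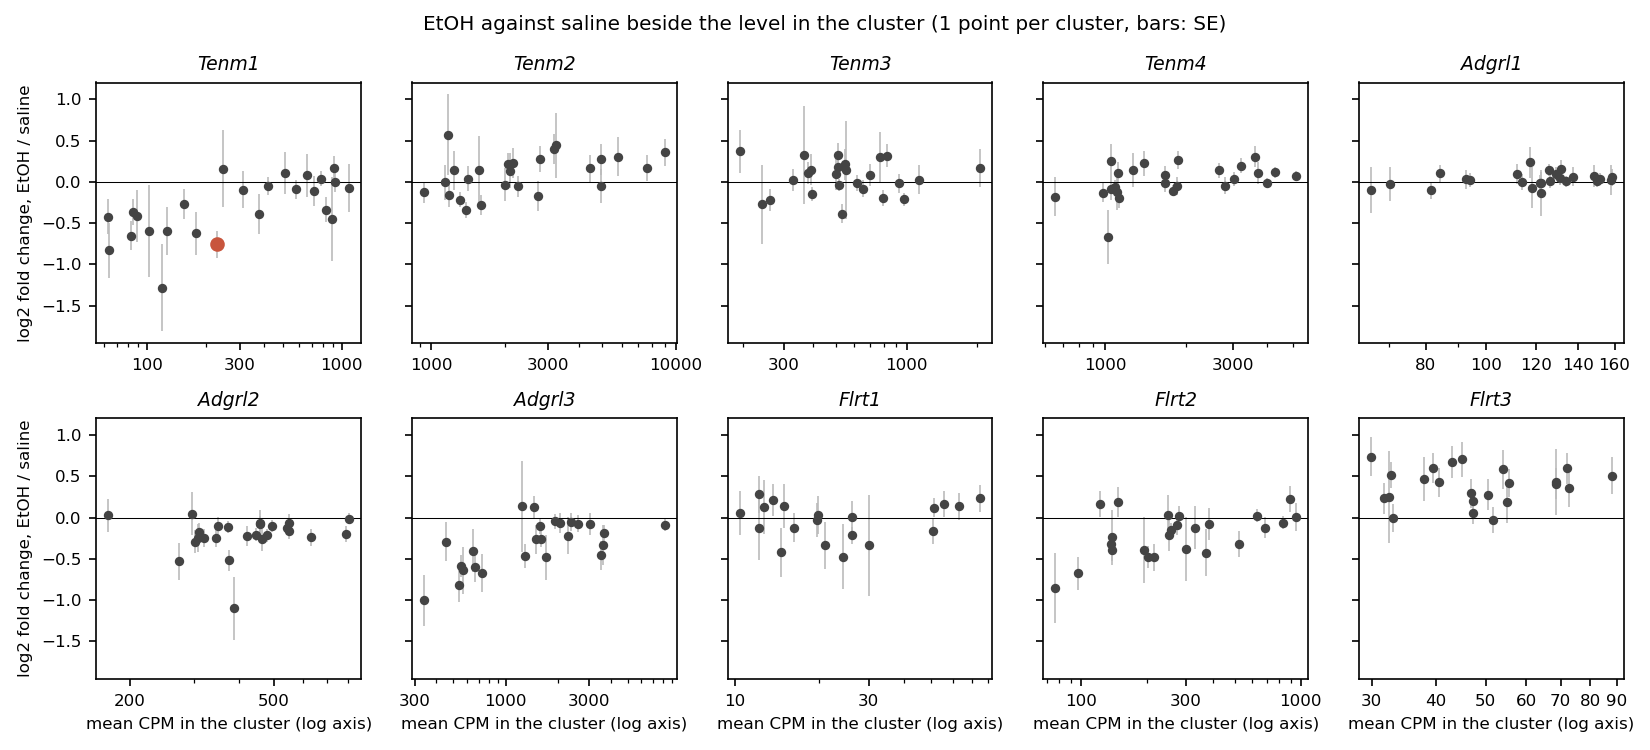
Log2 fold change of EtOH over saline with all 11 embryos (y axis, bars are SE) against the mean CPM of the gene in the cluster (log x axis), with 1 point per cluster and the called result in red. For Adgrl3, Tenm1 and Flrt2 the points furthest below 0 lie at low levels, with medians of -0.53, -0.60 and -0.35 in the lower clusters, while Flrt3 lies above 0 in 21 of 23 clusters.

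Markers of other cell types were measured in the same nuclei. The 3 interneuron markers Gad2, Dlx1 and Dlx2 summed to 41.2 to 101 CPM in the PN of the 4 other saline embryos, 38.0 CPM in S2-4 and 19.7 to 49.1 CPM in EtOH embryos. Nrxn3, a presynaptic neurexin that was highest in interneurons (21213 ± 2439 CPM in Int), was at 838 to 1864 CPM in the PN of the 4 other saline embryos, 680 CPM in S2-4 and 423 to 838 CPM in EtOH embryos. Reln, which marks Cajal-Retzius cells, was at 94.9 to 150 CPM in the RGC of the 4 other saline embryos, 62.9 CPM in S2-4 and 27.0 to 78.8 CPM in EtOH embryos. In these values S2-4 was below every other saline embryo, but the 4 other saline embryos were all above the EtOH embryos only for Reln in RGC. For the interneuron markers and Nrxn3 in PN, the lowest of them (S2-2) lay within the EtOH range. RGC include the interneuron precursors of Cluster 3, so interneuron markers in RGC need not come from other cell types. The part of Cluster 3 in the RGC values of these markers and of Nrxn3 was not tested. The 3 interneuron markers summed in RGC to 96.3 to 221 CPM in the 4 other saline embryos, 159 CPM in S2-4 and 94.3 to 142 CPM in EtOH embryos. In IPC they summed to 76.7 to 139, 78.4 and 47.4 to 117 CPM. Reln in Int was at 259 to 315 CPM, 237 CPM and 221 to 370 CPM. Nrxn3 in RGC was at 1277 to 3115, 2058 and 1269 to 1738 CPM. There S2-4 lay among the other saline embryos and above every EtOH embryo. In IPC Nrxn3 was at 969 to 2225, 947 and 470 to 1156 CPM. The part of such transcripts from other cell types in the negative fold changes of Adgrl3, Tenm1 and Flrt2 was not tested. With all embryos the main edgeR fit called only that of Tenm1 in Cluster 1, while DESeq2 also called Adgrl3 and Tenm1 lower in RGC and IPC. Blood markers summed to 5.99 to 95.6 CPM in saline and 18 to 43.3 CPM in EtOH embryos over all nuclei, and none of their 4 genes was at 0. Markers of fibroblasts, pericytes, microglia, endothelial cells and oligodendrocyte precursors, whose clusters the authors had removed, summed to at most 18.9 CPM per list in any embryo. Ntng1 and Tcf7l2, which mark a thalamic cluster that the authors had also removed, summed to 179 to 478 CPM in saline (179 CPM in S2-4) and 156 to 446 CPM in EtOH embryos. Retained clusters express both, with Tcf7l2 highest in Cluster 20 (1057 ± 750 CPM, n = 9) and Ntng1 in Cluster 24 (600 ± 248 CPM, n = 10). This sum therefore cannot separate leftover thalamic cells from the retained clusters, and whether those hold tissue from beside the cortex was not tested.

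For 4 of 5 opposite-strand ratios the 4 other saline embryos lay apart from S2-4 and the EtOH embryos. How often other pairs of genes divide the embryos this way was not counted, so the split is not shown to be particular to these. The ratios pool all nuclei, and the embryos differ in their mix of clusters and in depth. For every 1000 UMIs of Adgrl3 there were 4.53 to 6.95 UMIs of its antisense gene Gm16054 in the 4 other saline embryos, 10.1 in S2-4 and 8.39 to 12.2 in EtOH embryos. The 4 antisense genes of Tenm4 that were summed gave 18 to 25.4, 39.6 and 33.4 to 44.7 UMIs per 1000 of Tenm4. Flrt3, set against its host Macrod2 in the same way, gave 18.8 to 27.5, 36.9 and 30.1 to 35.9, and Flrt1 against its host Macrod1 gave 483 to 690, 340 and 338 to 370. Gm43573 gave 7.83 to 8.51, 7.48 and 6.98 to 8.31 per 1000 UMIs of Adgrl2 and did not divide the embryos. Over all the overlapping genes, edgeR called 3 of 114 tests in clusters (2.63%, beside 0.792% over all genes) and 2 of 38 in major types (5.26%, beside 3.75%). Of these calls, 4 were rises of antisense genes. Gm16054 rose in Cluster 8 (log2 fold change 0.60 ± 0.12, edgeR adjusted p = 0.0401), where Adgrl3 itself was not called, and its adjusted p was 0.0396 with batch as a block. Gm15412 in PN (0.81 ± 0.24, edgeR adjusted p = 0.0456), Gm15413 in Cluster 1 (0.85 ± 0.22, edgeR adjusted p = 0.0416) and Gm15414 in Cluster 15 (0.67 ± 0.15, edgeR adjusted p = 0.0489) lost their calls with the block, at 0.0539, 0.0516 and 0.0887. Macrod2, the host of Flrt3, was called lower in RGC (-0.36 ± 0.07, edgeR adjusted p = 0.0402, and 0.0468 with the block), and in PN it was at -0.10 ± 0.06 (edgeR adjusted p = 0.280). Macrod1, the host of Flrt1, was called in 0 types with all embryos (0.60 ± 0.21 in PN, edgeR adjusted p = 0.0795). Without S2-4, 46 of 111 tests in clusters were called (41 rises and 5 falls, 41.4%, beside 8.78% over all genes) and 23 of 39 in types (21 rises and 2 falls, 59.0%, beside 16.9%). The rises in clusters were 17 of Gm15414, 12 of Macrod1, 6 of Gm15413, 4 of Gm16054 and 1 each of Gm15412 and Gm10644, and the 5 falls were of Macrod2. In types Macrod1 rose in IPC, PN, Int and other neurons (edgeR adjusted p of 8.21e-05 to 0.0416), Gm15413 and Gm15414 in 4 types each, Gm15412 and Gm10644 in 3, Gm16054 in 2 and Sh2d1a in 1, and Macrod2 fell in 2. Gm43573 was called by edgeR in 0 of 8 tests with or without S2-4, and 0 had an unadjusted p under 0.05. These overlapping genes were looked up after values had been seen, and their part in the positive fold changes of Flrt3 was not tested. With all embryos the main edgeR fit called Flrt3 in 0 clusters and types, while DESeq2 called it higher in PN and Int.

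**Figure D5:**
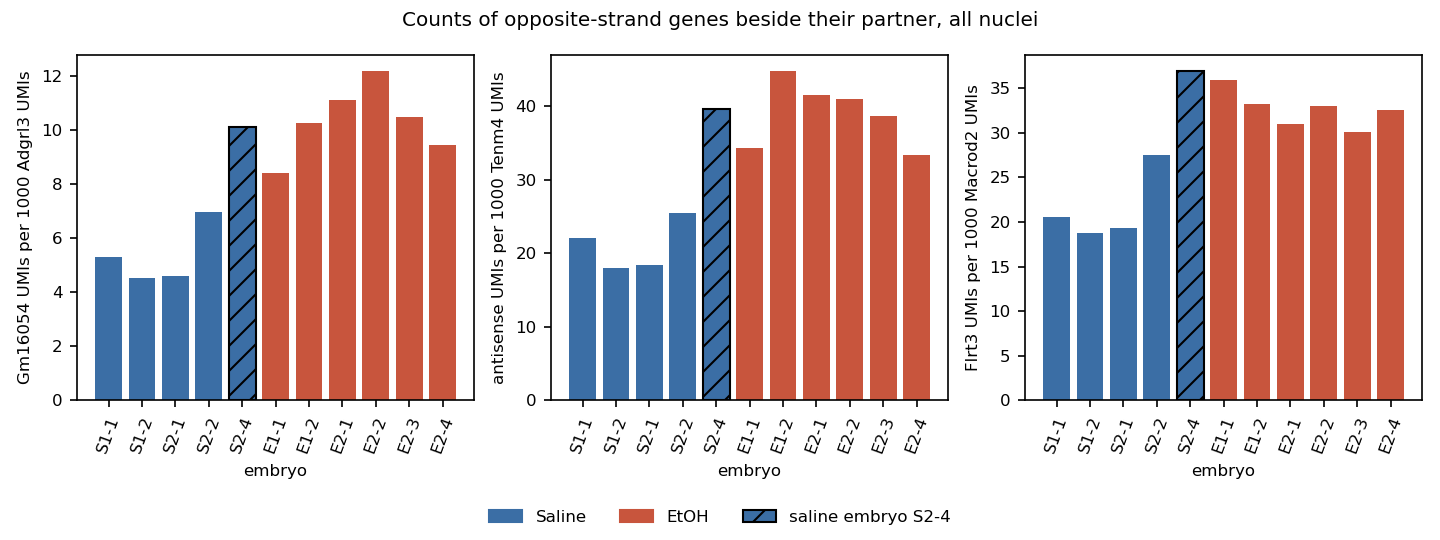
UMIs of opposite-strand genes for every 1000 UMIs of the gene they overlap, over all nuclei of each embryo (x axis), for Gm16054 with Adgrl3, 4 antisense genes with Tenm4 and Flrt3 with Macrod2 (y axes start at 0), with saline in blue, EtOH in red and S2-4 hatched. The 4 other saline embryos reach at most 6.95, 25.4 and 27.5, below S2-4 (10.1, 39.6 and 36.9) and below every EtOH embryo.

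The effect of EtOH was also compared between cell types, by limma on the differences in log2 CPM within embryos. PN against RGC gave 2 calls in 13573 genes (0.0147%) and PN against Int 1 in 14064 (0.00711%), and 0 of the 10 members was called in either at an adjusted p under 0.05. Without S2-4, PN against RGC gave 108 calls in 13574 genes (0.796%) and PN against Int 0 in 14066 (0%, with 845 genes at an unadjusted p under 0.05), and again 0 members were called, with limma adjusted p of 0.147 for Tenm1, 0.242 for Flrt3 and 0.290 for Tenm2 in PN against RGC and 0.678 for Tenm4 in PN against Int. With all embryos, the 4 results with an unadjusted p under 0.05 were Tenm1 (0.47 ± 0.17), Tenm2 (0.40 ± 0.16) and Flrt3 (0.48 ± 0.22) in PN against RGC, with limma adjusted p of 0.383, 0.421 and 0.490, and Tenm4 (0.14 ± 0.06) in PN against Int, with an adjusted p of 0.959. These p-values do not show that the effects in the cell types were alike.

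Partners of the 3 families were taken as a list of 18 genes: the Unc5 receptors, the neurexins, Robo1 and Dcc, FGF receptors, scaffolds of the synapse, the contactin Cntn6, and Adgrl4, a relative of the latrophilins found in vessels. In 385 tests over the clusters, 5 were called (1.30%, beside 0.792% over all genes). Of these, 4 were rises of Fgfr2, a receptor tyrosine kinase that FLRT proteins are known to bind, in Clusters 5, 16, 17 and 22, with log2 fold changes of 0.46 to 0.58 and edgeR adjusted p between 0.0353 and 0.0486. With batch as a block the edgeR adjusted p was 0.0489 in Cluster 5 and rose above 0.05 in the other 3 (0.0506 to 0.0614), which lost their calls. In 89 tests of partners over the major types, 3 rises and 1 fall were called, where 3.75% of all tests were. Fgfr2 was called higher in IPC (0.50 ± 0.10, edgeR adjusted p = 0.0470, and 0.0541 with batch as a block), Int (0.40 ± 0.10, 0.0395 and 0.0455) and PN. In PN it was at 270, 255, 233 and 310 CPM in S1-1, S1-2, S2-1 and S2-2, at 440 CPM in S2-4 and at 392 to 488 CPM in EtOH embryos (log2 fold change 0.48 ± 0.13, edgeR adjusted p = 0.0411, 0.0527 with batch as a block and 1.43e-05 without S2-4). S2-4 was again inside the EtOH values and the 4 other saline embryos below them. Nrxn3 fell in PN as a type (-1.02 ± 0.29, edgeR adjusted p = 0.0499, 0.0632 with batch as a block and 0.00988 without S2-4), where its level was low. Of the partners, Unc5d, the FLRT2-binding Unc5 receptor, was highest in early PN (Cluster 9, 9153 ± 1649 CPM), where Tenm4 also peaked. Fgfr2 was nearly equal in Cluster 3 (920 ± 138 CPM) and Cluster 12 (902 ± 152 CPM), and Cluster 12 was its highest by thinned share (79.8%). Adgrl4 stayed at or under 4.74 CPM and was too sparse to be tested in any cluster. Without S2-4 the partners had 20 rises and 30 falls in clusters (13%, beside 8.78% over all genes), among them 19 rises of Fgfr2, 12 falls of Dcc and 6 of Robo1.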

How the data were processed

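The data are snRNAseq UMI counts per gene and nucleus from E14 mouse cortex, 5 saline and 6 EtOH embryos. For 1 further saline embryo, S2-3, no counts were at hand. The authors state that they removed 1 saline sample, which they do not name, because its cells were spread differently over the clusters. The deposited counts are raw whole numbers, 1 table per embryo and cluster, which the authors made with 10x 3′ v3.1 libraries, Cell Ranger and mm10, followed by Harmony integration and clustering. The authors had left out thalamic and non-neuronal clusters. No comparison columns were present. Doublets were not called here.

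Counts were summed per embryo and cluster (at least 10 nuclei, which 9 embryo-cluster pairs did not reach) or per major cell type, and tested with edgeR 4.0.16 in R 4.3.3 (TMM, filterByExpr, robust quasi-likelihood). P-values were adjusted by Benjamini-Hochberg over all genes of a cluster or type. Differences between types used limma 3.58.1 on log2 CPM values (prior count 2). DESeq2 1.42.0 was an alternative. Tables and figures used Python 3.11.15 with NumPy 2.4.6, pandas 2.3.3 and matplotlib 3.10.9. The scripts were tested on simulated counts. Littermates were treated as replicates, so p-values may measure the spread within litters. Dam number marks the batch in the labels, which pairs S1 with E1 and S2 with E2, and the dams' deviations from their group means correlated between -0.158 and 0.0747 over the types (-0.143 to 0.240 without S2-4). No pair of littermates' libraries agreed within sampling noise (chi-square per gene 4.33 to 89.7).

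The members, gene lists and tests were chosen with earlier results of these data known. Named results are the called pairs of a member and a cluster or type, filled up to 5 by the smallest unadjusted p, called partners, and the 3 genes most like each member. The opposite-strand genes were added after values were seen. Results that need certain genes of these lists are not reported here.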

Additional observations from a re-analysis of the deposited data

Results flagged for a closer look

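In each group of embryos, the highest and lowest value of each member was set against the others by Dixon's criterion at 95%, over the 10 members in the 5 major cell types and the named clusters. Of 110 groups, 7 held an embryo that stood apart, where chance gives about 1 in 20.

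Saline embryo S2-1 stood apart in 4 of them. Its Tenm3 in RGC was 1491 CPM, with the other saline embryos between 910 and 1075. A type pools clusters in unequal shares, and S2-1 had 220 nuclei in Cluster 20 and 870 in Cluster 3, the clusters highest in Tenm3, against 41 to 60 and 197 to 591 in the others. The part of this mix in the Tenm3 value of S2-1 was not tested. Its Tenm1 in IPC was 215 CPM, with the others between 94.7 and 125. Its Tenm4 in IPC was 2322 CPM, with the others between 3408 and 3831. Its Flrt1 in PN was 28.5 CPM, with the others between 36.7 and 37.2.

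Among the EtOH embryos E1-2 had 6386 CPM of Tenm2 in PN, with the others between 3614 and 4423, and 216 CPM of Tenm1 in Cluster 1, with the others between 164 and 179. Saline embryo S2-4 had 75.4 CPM of Flrt3 in other neurons, with the other saline embryos between 33.8 and 44.6.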

How the results depend on the processing

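Counts of called member tests are followed by their share of the members' tests and, after a slash, by the share of all genes' tests called under the same setting. Over the clusters, 1 with all embryos (0.412%/0.792%) was 10 with DESeq2 (4.12%/2.60%), 15 with no low-count filter (6%/2.07%), 0 with batch as a replicate block (0%/0.419%), 3 with the dam as a random block (1.28%/2.30%), 9 with counts summed per dam (3.77%/0.721%) and 4 after thinning to 2000 UMIs (1.86%/0.624%). It ranged from 0 to 23 when 1 embryo at a time was left out, with 23 without S2-4 (9.54%/8.78%). Without S2-4 it was 31 with batch as a replicate block (12.9%/8.47%), 27 after thinning (12.9%/5.90%) and 24 with the dam as a random block (10.3%/9.6%), 3 settings chosen after seeing the data. Of these calls, 23, 16 and 23 were among the 23 of the main fit without S2-4, so thinning lost some of them. Over the major types, 0 with all embryos (0%/3.75%) became 6 with DESeq2 (12%/8%), 1 with no filter (2%/2.63%), 1 with the dam as a random block (2%/5.82%) and 3 with counts summed per dam (6%/1.23%), and ranged from 0 to 9 when 1 embryo was left out. Without S2-4 it was 10 with the block (20%/16.6%), 10 after thinning (20%/11.7%) and 8 with the dam as a random block (16%/16.4%). The calls between cell types stayed at 0 to 0 of the members when 1 embryo was left out. The highest cluster was the same for 6 of 10 members by thinned share, for 8 in saline embryos and for 8 with pooled counts. Of the named results' values, 159 kept their direction and side of the threshold, 13 no longer passed it (all Tenm1 in Cluster 1), 41 newly passed it and 0 changed sign. The cause of these changes was not tested. Depth limits Flrt1 and Flrt3 most, and counting intervals were not drawn for them.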
